A study of Homo sapiens with 2 samples.

Results

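Epithelial junction and identity genes were compared between 2 libraries of A549 cells, a human lung adenocarcinoma line of epithelial origin. The set holds 42 genes of the 57736 in the deposited table, chosen by symbol, and comprises adhesion, tight junction, polarity and desmosome genes, transcription and splicing factors, surface proteases with their inhibitors, and other epithelial surface genes. The labels give 1 library of cells with epithelial to mesenchymal transition (EMT) induced by TGF-beta, and 1 of cells given no treatment. Both are labelled as wild type, and the study design names an A549 line with a red fluorescent reporter of vimentin. The sources used here do not give the dose and duration of TGF-beta or say whether the line is 1 clone. Each library was made from 10 ng of total RNA with the AmpliSeq Transcriptome kit, a multiplex PCR method that reads 1 short stretch per targeted gene.

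In an epithelium, tight junctions seal the space between neighbouring cells, desmosomes tie their keratin filaments together, and E-cadherin joins their membranes. In EMT, as known from other work, TGF-beta induces repressors of the SNAI and ZEB families, which bind E-box sequences in promoters of epithelial genes. GRHL, OVOL and ESRP factors are known to hold cells in the epithelial state.

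The EMT-labelled library held 597133 counts and the untreated library 674784, with 43.7% and 32.7% of the deposited expected counts in the 10 genes with the most. Counts are given as rounded expected counts and levels as CPM, which are counts over the library's TMM-scaled total. Genes were compared where either library reached 5 CPM, and the log2 ratio is the EMT-labelled library over the untreated library. Brackets hold exact 95% intervals of the ratio, and these take in counting error alone. Each group has 1 library, so that the treatment could not be tested and no difference has a replicate check. Mesenchymal markers went both ways. Vimentin (VIM), the filament gene on which the reporter is based, had 56 counts in the EMT-labelled library against 452 in the untreated library. GAPDH, a housekeeping gene of glycolysis, was also low in the EMT-labelled library, with 115 counts against 2764. COL1A1, a fibrillar collagen gene, had 356 counts in the EMT-labelled library against 196 in the untreated library, 2.29-fold higher with a log2 interval of 0.94 to 1.46, and was named after its values were seen. VIM thus ran against the label and COL1A1 with it, and every direction given here depends on that label. Surfactant and other alveolar or airway genes summed to 88 counts in the EMT-labelled library and 92 in the untreated library. Of these 12 genes ABCA3 had the most, with 45 and 53 counts, followed by MUC5B with 15 and 14. LAMP3 and SCGB1A1 had 0 in both libraries, and SFTPC, which defines alveolar type II cells, had 2 counts in each. All 12 mesenchymal markers summed to 486 counts in the EMT-labelled library and 748 in the untreated library, and without VIM to 430 and 296. COL1A1 held 356 and 196 of these sums without VIM, and CDH2 had 11 against 25. Of the 12 markers, 2 had more counts in the EMT-labelled library and 7 had more in the untreated library, with LUM and SPARC at 0 in both. Leukocyte markers, listed together with the red cell gene HBB (5 counts in each library), summed to 15 and 40 counts. Of these, CD68 had 2 and 17, CD14 had 0 and 10, and LYZ had 0 in both. Endothelial markers summed to 32 and 25. The part of these markers in the differences was not tested.

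The epithelial genes went both ways, in shares near those of all genes. Of the 42 genes, 35 passed the filter: in the EMT-labelled library 8 were higher by 2-fold or more, 8 lower by 2-fold or more, and 19 lay between. Over all 15401 genes that passed, 22.0% were higher by that much and 26.7% lower. With DESeq2 size factors in place of TMM, 5 epithelial genes were higher and 9 lower, against 17.5% and 33.8% of all genes, and with scaling on ribosomal protein genes 39 were higher and 0 lower, where the median gene stood at a log2 ratio of 3.33. Every difference is therefore relative to the bulk of expressed genes. With TMM, the median log2 ratio of the epithelial genes was 0.34, the value that scaling gives any gene with equal counts in the libraries, against 0.01 over all genes that passed. The counting interval lay wholly above equality for 2 of the 35 and wholly below it for 5, against a background of 9.99% and 16.8% of genes. The 7 genes that did not pass were F11R, CRB3, DSC2, EHF, SPINT1, ERBB3 and RAB25. CLDN7, MARVELD2 and AP1M2 passed with 3 counts or fewer in both libraries. They are given no ratio but stay in the tallies, MARVELD2 as higher and CLDN7 and AP1M2 as between. They also stay in the medians, as do such genes in all medians given here. Without them the middle ratio of the epithelial genes was 0.22, that of EVPL and ST14. The filter is uneven at this depth, since 5 CPM equals 2.83 counts in the EMT-labelled library and 3.57 in the untreated library. MARVELD2, with 3 counts against 1, therefore passed, while F11R and DSC2, with 1 count against 3, did not. F11R also stands under another gene identifier, with 0 counts against 5, which would have passed but was not used. With a filter of more than 3 counts in 1 library, 7 epithelial genes of 32 were higher and 8 lower.

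**Figure D1:**
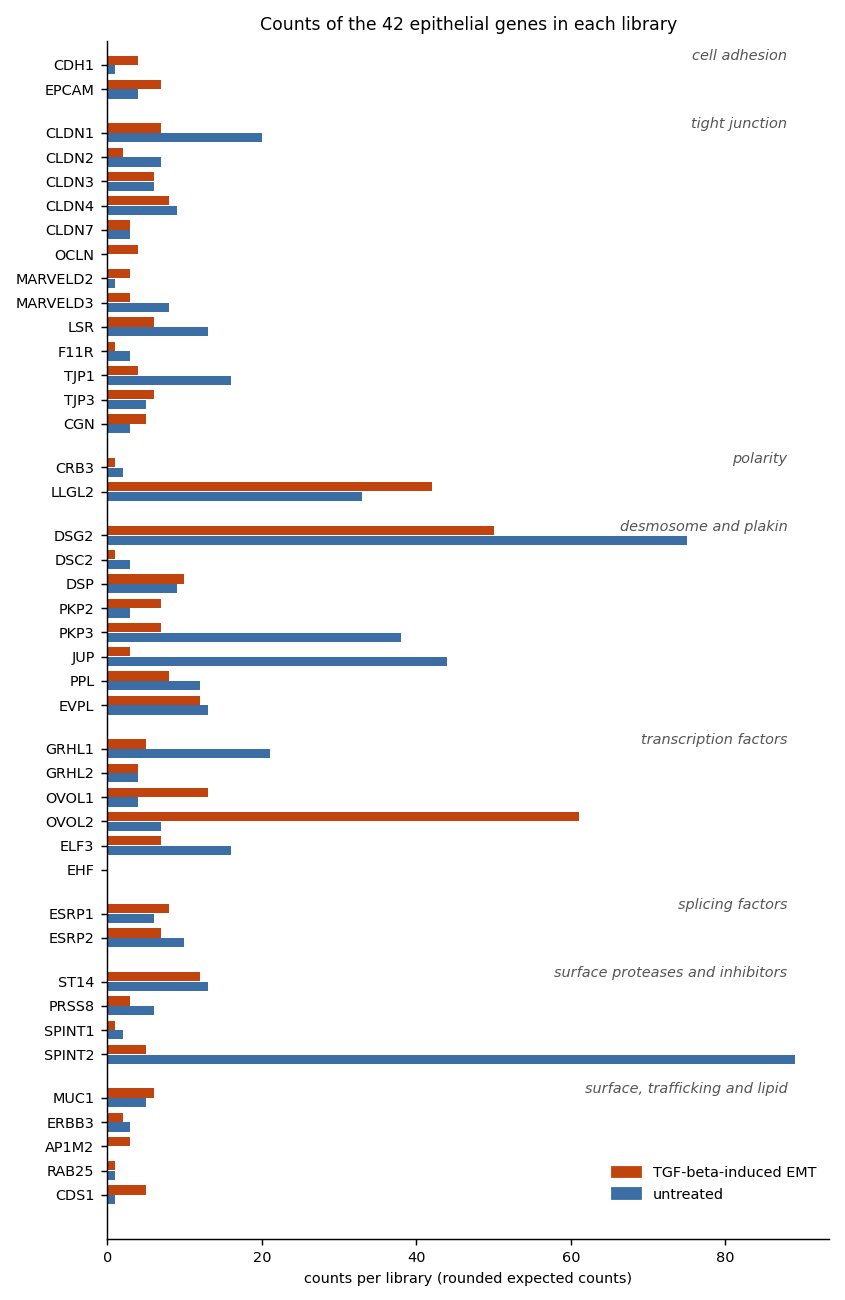
Counts of each of the 42 epithelial genes in the EMT-labelled library (upper bar) and the untreated library (lower bar), grouped by role, on a linear axis from 0. SPINT2, JUP and PKP3 have the widest gaps with more counts in the untreated library, and OVOL2 the widest the other way.

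Depth limited most of these genes. Of the 42, 27 had 10 counts or fewer in both libraries, and 8 had at least 20 counts in 1 of them. Of these 8, SPINT2, JUP, PKP3, GRHL1 and CLDN1 were lower in the EMT-labelled library by 2-fold or more, OVOL2 was higher by that much, and DSG2 and LLGL2 lay between. Over all 3629 genes with at least 20 counts in 1 library, 40.3% were lower by 2-fold or more and 14.4% higher. All 42 genes together held 353 counts in the EMT-labelled library, or 0.0591% of it (exact binomial interval 0.0531% to 0.0656%), and 519 in the untreated library, or 0.0769% (0.0704% to 0.0838%). The log2 ratio of these sums was -0.22 (-0.42 to -0.02). The sum rested on few genes. Without SPINT2 it was 348 counts against 430, and the ratio stood at 0.03 on the log2 scale (-0.18 to 0.24). Without OVOL2 it was 292 against 512, at -0.47 (-0.69 to -0.26). The interval also reached equality without CLDN1, TJP1, PKP3, JUP or GRHL1, each left out in turn. Without SPINT2, JUP and PKP3, left out after their values were seen, the sums were 338 and 348 and the log2 ratio was 0.29 (0.07 to 0.51).

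**Figure D2:**
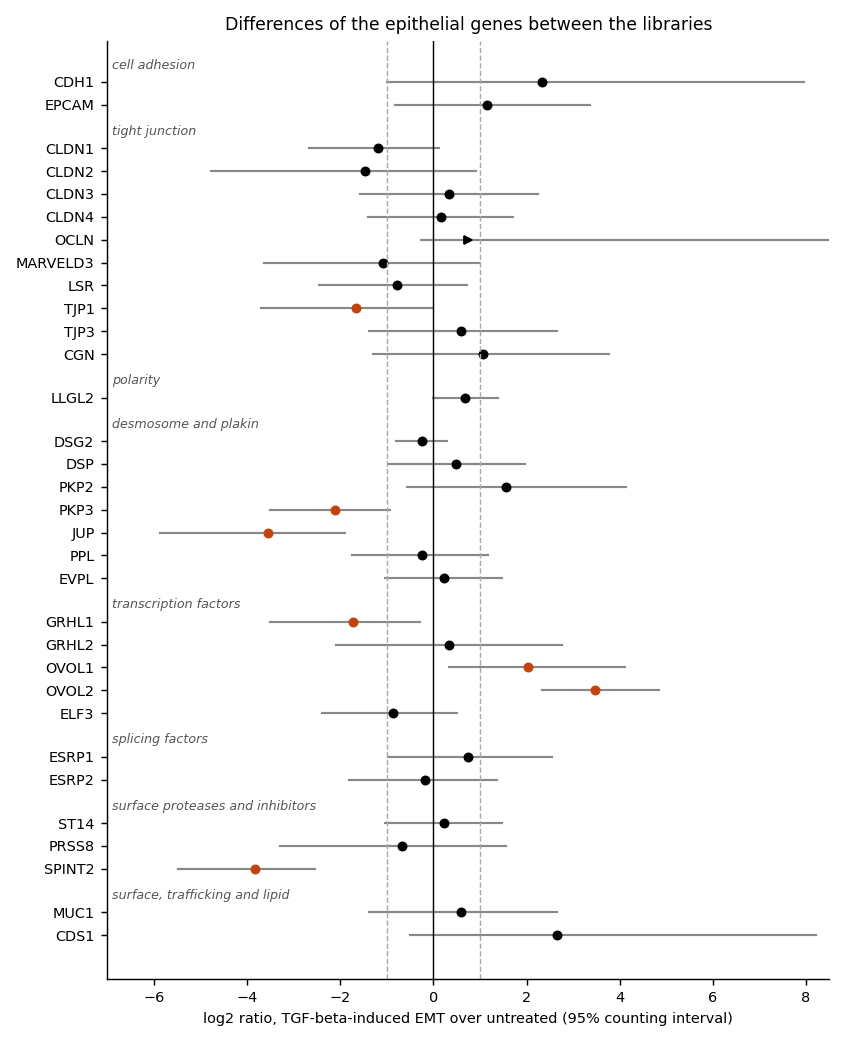
Log2 ratio of each of the 32 epithelial genes for which a ratio is given, EMT-labelled library over untreated library, with its exact 95% counting interval; dashed lines mark 2-fold, and orange points have an interval that leaves out equality. OCLN, with 0 untreated counts, is drawn as an arrow at its floor value, and its interval has no upper end.

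The adhesion genes had few counts. CDH1, which encodes E-cadherin (hg19 chr16:68771128-68869451, plus strand), had 4 counts in the EMT-labelled library against 1 in the untreated library, or 7.08 against 1.40 CPM, and its log2 ratio was 2.34 (-1.0 to 7.96). EPCAM, an epithelial adhesion molecule of the cell surface, had 7 counts against 4, at 1.14 on the log2 scale (-0.83 to 3.36). Both genes had more counts in the EMT-labelled library, and both intervals take in equality, so a difference was not detectable at this depth.

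Among the tight junction genes, 12 of 13 passed the filter, 2 of them higher by 2-fold or more and 4 lower. Their median log2 ratio was 0.25, with CLDN7 and MARVELD2 kept although they are given no ratio. Without them the middle ratios were those of LSR (-0.78) and CLDN4 (0.17), so the sign of the median rested on CLDN7 and MARVELD2. Over all genes that passed, 22.0% were higher by that much and 26.7% lower. The summed count of the tight junction genes was 58 in the EMT-labelled library and 94 in the untreated library, a log2 ratio of -0.36 (-0.86 to 0.13). The claudins, membrane proteins that form the paracellular seal or its pores, differed among themselves. CLDN1, a sealing claudin, had 7 counts in the EMT-labelled library against 20 in the untreated library, and the ratio was -1.18 on the log2 scale (-2.66 to 0.12). CLDN2, which forms a pore for cations, had 2 counts against 7, with -1.47 (-4.77 to 0.92). CLDN3 had 6 counts in each library and CLDN4 had 8 against 9, with log2 ratios of 0.34 and 0.17. CLDN7 had 3 counts in each. The claudins thus ranged from equal counts to a deficit in the EMT-labelled library, and every one of the intervals took in equality.

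The other membrane proteins of the tight junction were near the detection limit. OCLN, which encodes occludin, had 4 counts in the EMT-labelled library against 0, which is at least 1.68-fold higher with the 0 set to a floor of 3 counts in the untreated library, and the counting interval reached down to a log2 ratio of -0.26. MARVELD2, which encodes tricellulin of the tricellular corners, had 3 counts against 1, and MARVELD3, a relative of occludin, had 3 against 8 (-1.08, -3.63 to 0.98). Exons of PHLPP2 on the opposite strand overlap the 3′ segments of MARVELD3, and PHLPP2 had 6.25 expected counts in the EMT-labelled library against 30.5. LSR, which recruits tricellulin to those corners, had 6 counts against 13 (-0.78, -2.46 to 0.72). F11R, the junctional adhesion molecule A gene, stands under 2 gene identifiers in the table. The main one had 1 count in the EMT-labelled library against 3 in the untreated library, and the other had 0 against 5. No member of this group had more than 13 counts in either library, and none of these intervals left out equality.

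Of the cytoplasmic plaque genes, TJP1 had the clearest difference. TJP1, which encodes the scaffold ZO-1, had 4 counts in the EMT-labelled library against 16 in the untreated library, or 7.08 against 22.4 CPM. Its log2 ratio was -1.66 (-3.70 to -0.03), so that the interval barely left out equality. TJP3, which encodes ZO-3, had 6 counts against 5 (0.60, -1.38 to 2.65). CGN, which encodes the actin-linked plaque protein cingulin, had 5 against 3 (1.07, -1.29 to 3.76). Neither followed TJP1 in direction, and both intervals were wide. The difference between these genes was not tested.

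Of the polarity genes, LLGL2, a basolateral scaffold, had 42 counts in the EMT-labelled library against 33 in the untreated library, or 74.3 against 46.3 CPM. Its log2 ratio was 0.68 (-0.01 to 1.39), just short of leaving out equality. CRB3, an apical polarity protein, had 1 count against 2 and gave no ratio.

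The desmosome genes were the best read of the junction genes, with 98 counts in the EMT-labelled library and 197 in the untreated library, a log2 ratio of their sums of -0.67 (-1.04 to -0.31). Most of the gap between these sums lay in JUP and PKP3, with 3 and 7 counts in the EMT-labelled library against 44 and 38. Of 8 members, 7 passed the filter, 1 higher by 2-fold or more and 2 lower, against 22.0% and 26.7% of all genes. The median log2 ratio of the 7 was -0.25. The lower members were both armadillo proteins of the plaque. JUP, which encodes plakoglobin, shared by desmosomes and adherens junctions, had 3 counts in the EMT-labelled library against 44 in the untreated library, or 5.31 against 61.7 CPM. It was 11.6-fold lower in the EMT-labelled library, with a log2 ratio of -3.54 (-5.87 to -1.90). PKP3, which encodes plakophilin 3, had 7 counts against 38, or 12.4 against 53.3 CPM, and was 4.30-fold lower with a log2 ratio of -2.10 (-3.51 to -0.92).

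The cadherins and plakins of the desmosome did not show such a gap. DSG2, the desmosomal cadherin desmoglein 2, had 50 counts in the EMT-labelled library against 75 in the untreated library, or 88.5 against 105 CPM, with a log2 ratio of -0.25 (-0.80 to 0.29). DSP, which encodes desmoplakin, the link to keratin filaments, had 10 counts against 9 (0.49, -0.97 to 1.96). PKP2, the related plakophilin 2 gene, had 7 counts against 3 (1.56, -0.57 to 4.14), more in the EMT-labelled library where PKP3 had fewer. PPL and EVPL, which encode the plakins periplakin and envoplakin, had 8 against 12 and 12 against 13 counts, and DSC2, desmocollin 2, had 1 against 3. The interval of DSG2 leaves out a 2-fold difference in either direction, whereas those of DSP, PKP2, PPL and EVPL do not.

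The epithelial transcription factors went both ways. OVOL2, a zinc finger repressor of mesenchymal genes, had 61 counts in the EMT-labelled library against 7 in the untreated library, or 108 against 9.82 CPM. Its log2 ratio of 3.46 (2.33 to 4.83) was the highest of the 32 genes with a ratio. Its relative OVOL1 had 13 counts against 4 and a log2 ratio of 2.04 (0.34 to 4.11). GRHL1, a grainyhead factor that activates junction genes, had 5 counts against 21, at -1.73 on the log2 scale (-3.50 to -0.29), while GRHL2 had 4 counts in each library. ELF3, an ETS factor of epithelia, had 7 counts against 16 (-0.86, -2.38 to 0.50), and EHF, another ETS factor, had 0 counts in both libraries. The 2 OVOL genes were thus the only members of the whole set with an interval above equality. The group's summed count was 90 in the EMT-labelled library against 52 in the untreated library, a log2 ratio of 1.13 (0.62 to 1.65), and 29 against 45 without OVOL2, a log2 ratio of -0.30 (-1.02 to 0.41).

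The epithelial splicing factors, which keep epithelial exon choices in FGFR2 and CD44 among others, differed within counting error. ESRP1 had 8 counts in the EMT-labelled library against 6 in the untreated library (0.75, -0.97 to 2.56), and ESRP2 had 7 against 10 (-0.18, -1.81 to 1.36).

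Among the surface proteases and their inhibitors, the difference lay in 1 gene. SPINT2 (hg19 chr19:38734675-38783254, plus strand), which encodes a Kunitz-type inhibitor of matriptase and hepatocyte growth factor activator, had 5 counts in the EMT-labelled library against 89 in the untreated library, or 8.85 against 125 CPM. It was 14.1-fold lower in the EMT-labelled library, with a log2 ratio of -3.82 (-5.48 to -2.54), the largest deficit of the 32 genes with a ratio. ST14, which encodes matriptase itself, had 12 counts against 13 (0.22, -1.04 to 1.47). PRSS8, the prostasin gene, had 3 against 6 (-0.66, -3.29 to 1.56), and SPINT1, the related inhibitor, had 1 against 2. Without SPINT2 the group summed to 16 counts in the EMT-labelled library and 21 in the untreated library, with a log2 ratio of -0.06 (-1.09 to 0.95).

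The remaining surface, trafficking and lipid genes had at most 6 counts in either library. CDS1, a CDP-diacylglycerol synthase of phospholipid synthesis, had 5 counts in the EMT-labelled library against 1 in the untreated library (2.66, -0.50 to 8.22). MUC1, a membrane mucin, had 6 against 5 (0.60, -1.38 to 2.65). ERBB3, a receptor of neuregulin, had 2 against 3. AP1M2, an adaptor subunit of basolateral sorting, had 3 against 0, and RAB25, an epithelial GTPase of recycling, had 1 in each. No difference was detectable in these genes at this depth.

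**Figure D3:**
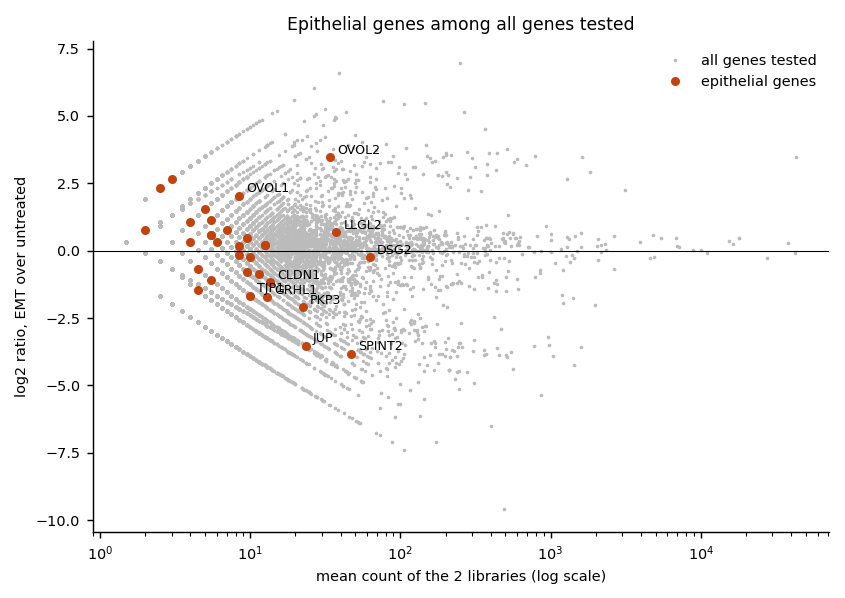
Log2 ratio of the EMT-labelled library over the untreated library against the mean count of the libraries (log axis) for the 15401 genes tested (grey) and the 32 epithelial genes with a ratio (orange). The epithelial genes lie within the grey cloud at every depth, from SPINT2 at -3.82 to OVOL2 at 3.46.

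The position of the counts along the exons differed between the libraries in several of these genes. Exons of a gene that overlap were merged into segments and numbered 5′ to 3′, and the deposited exon values were summed in each. In the untreated library, 61.3% of the SPINT2 counts lay in segment 4 (hg19 chr19:38774267-38774437) and 37.6% in segment 5, both coding, against 41.9% and 18.1% of the 5 counts in the EMT-labelled library. JUP counts of the untreated library lay at 66.6% in segment 8 (chr17:39925670-39925929) and 25.5% in segment 9 of 26. PKP3 had 20.8 of its untreated counts in segment 14 and 10.2 in segment 13 of 15, whereas the EMT-labelled library had 0 and 2. In these genes the untreated counts were thus shared by neighbouring coding segments.

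For CLDN1, GRHL1 and TJP1, the counts of the EMT-labelled library lay in other segments than most of the untreated counts. CLDN1 had 16.2 of its untreated counts in segment 4, the last, while its EMT counts were 4 in segment 1, 3 in segment 2 and 0 in segments 3 and 4. Segment 1 of CLDN1 also held 3 untreated counts. GRHL1 had 13.4 and 4.81 untreated counts in segments 8 and 9 against 0 and 0 in the EMT-labelled library, whose counts were 4 in segment 6 and 1 in segment 18. Segments 6 and 18 of GRHL1 also held 2 and 1 untreated counts. TJP1 had 12 untreated counts in segment 24 (chr15:30012562-30012912) against 0 in the EMT-labelled library, whose 4 counts were spread over segments 3, 9 and 34. Counting only the segment that held most untreated counts would leave each of these 3 genes with 0 counts in the EMT-labelled library.

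The joins between the segments that held untreated counts of these genes are printed to show the sequence that connects them. The files place counts by whole segment, so how near the counts lay to a join is not known. Each run is 40 bases on either side of the join, from the GENCODE release 29 transcript whose exon lengths equal those of the same transcript in the deposited table, with the 6 bases on either side of the join in capitals.
JUP, segments 8 and 9, chromosome 17: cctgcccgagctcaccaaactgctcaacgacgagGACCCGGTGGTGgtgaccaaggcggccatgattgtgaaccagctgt
GRHL1, segments 8 and 9, chromosome 2: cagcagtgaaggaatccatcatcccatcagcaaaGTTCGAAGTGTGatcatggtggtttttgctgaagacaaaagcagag
CLDN1, segments 3 and 4, chromosome 3: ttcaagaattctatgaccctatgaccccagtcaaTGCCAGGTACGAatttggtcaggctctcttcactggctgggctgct
TJP1, segments 24 and 25, chromosome 15: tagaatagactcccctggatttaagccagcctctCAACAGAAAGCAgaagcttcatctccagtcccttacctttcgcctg
Amplicon positions of the kit were not analysed here, so whether these joins are its targets is not stated.

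Other genes kept the same position. OVOL2 had 60.5 of 60.5 EMT counts and 6 of its untreated counts in segment 4 (hg19 chr20:18037301-18037521), which is coding in at least 1 transcript. DSG2 had all 50 EMT counts and 92.0% of its untreated counts in its last segment, coding and 3′ UTR, which exons of RP11-75N4.2 overlap on the opposite strand, a gene with 1 count in the EMT-labelled library and 0 in the untreated library. LLGL2 had 64.3% of EMT counts and 70.8% of untreated counts in segment 14. ST14 had near-equal totals but unlike positions, with 8 of the EMT counts in segment 17 and 8 of the untreated counts in segment 19. DSP likewise had 6 EMT counts in segment 1, where the untreated library had 0. A near-equal total therefore did not mean that the same part of the gene was read. OVOL1, higher by its total, had 9 EMT counts against 0.905 untreated counts in segment 1. In segment 6, which led in the untreated library, it had 4.67 against 3.67. Exons of RP11-770G2.5 overlap that segment on the opposite strand.

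Of 26 epithelial genes with more than 1 segment and at least 3 counts in each library, 4 (CLDN7, TJP3, CGN and PPL) had leading segments tied within 0.01 counts and were left out. In 13 of the other 22, or 59.1%, the segment with the most counts was the same in both libraries, against 70.5% of 6925 such genes. With few counts the leading segment is poorly fixed, and among genes with under 20 counts in both libraries it was the same in 60.0% of 15 epithelial genes and 66.1% of 4221 genes. In 5 of the 22 epithelial genes, or 22.7%, the EMT-labelled library had under 0.01 counts in the leading segment of the untreated library, against 11.4% of all such genes. These 5 were CLDN1, TJP1, PKP3, GRHL1 and PRSS8. Among genes with under 20 counts in both libraries the shares were 13.3% of the epithelial genes and 13.1% of all. The part that these positions have in the ratios was not tested.

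**Figure D4:**
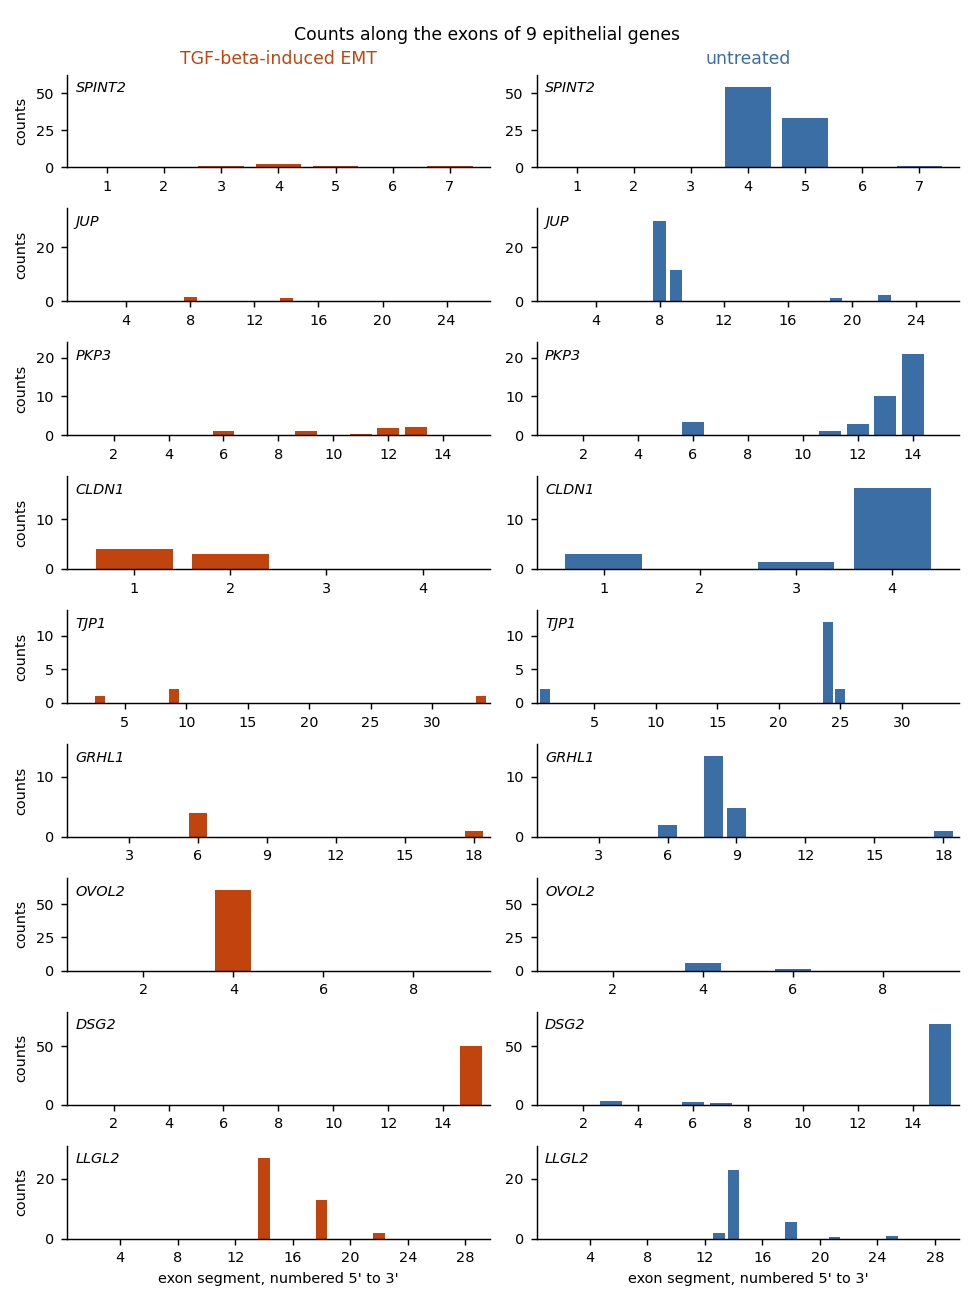
Deposited counts in each exon segment, numbered 5′ to 3′, of 9 epithelial genes in the EMT-labelled library (left) and the untreated library (right), with 1 count axis per gene. CLDN1, TJP1 and GRHL1 have their EMT counts in other segments than most of their untreated counts, while OVOL2, DSG2 and LLGL2 keep the same leading segment.

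Of the repressors that bind E-boxes, TCF3 and SNAI1 reached 20 counts in a library. SNAI1 had 11 counts in the EMT-labelled library against 25 in the untreated library (-0.85, -2.02 to 0.23). SNAI2 had 0 against 11, with an upper interval end of -0.99. ZEB1 had 2 against 3 and ZEB2 5 against 4. Of the 10 repressors on the list, 8 passed the filter, 2 at least 2-fold higher and 1 at least 2-fold lower. TCF3, which encodes the E-box factors E12 and E47, had 45 counts against 6 (3.24, 2.01 to 4.76).

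The sequence that SNAI and ZEB repressors bind, CAGGTG, was searched for in promoter windows from RefSeq (GRCh38.p14), each from 250 bases before to 50 after an annotated start, on both strands and with overlaps allowed. Windows were found for 24 of the 42 genes by symbol, 36 windows in all. The 18 genes with no entry include CDH1, EPCAM, SPINT2, PKP3, OVOL1 and OVOL2. Of the 24 genes 16, or 66.7%, had at least 1 match, against 24.1% of the 27305 genes in the table. By window the shares were 18 of 36 against 20.6% of 35116. The windows of the epithelial genes were also richer in G and C, with a median of 65.7% against 58.7%. CLDN7 and CRB3 had 5 matches each in 1 window and AP1M2 had 3. JUP, with 2 matches, is the most strongly lower of the genes with a match. These 4 windows are printed to show how the matches lie, with the matches in capitals, CAGGTG on the printed strand or CACCTG on the other.
CRB3, chr19:6464021-6464320, plus strand: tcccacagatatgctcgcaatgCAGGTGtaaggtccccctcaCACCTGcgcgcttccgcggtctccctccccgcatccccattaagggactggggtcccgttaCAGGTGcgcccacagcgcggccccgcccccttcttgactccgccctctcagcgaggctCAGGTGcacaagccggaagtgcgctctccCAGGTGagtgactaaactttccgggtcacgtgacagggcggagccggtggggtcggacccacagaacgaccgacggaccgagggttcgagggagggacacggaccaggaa
CLDN7, chr17:7262429-7262728, minus strand: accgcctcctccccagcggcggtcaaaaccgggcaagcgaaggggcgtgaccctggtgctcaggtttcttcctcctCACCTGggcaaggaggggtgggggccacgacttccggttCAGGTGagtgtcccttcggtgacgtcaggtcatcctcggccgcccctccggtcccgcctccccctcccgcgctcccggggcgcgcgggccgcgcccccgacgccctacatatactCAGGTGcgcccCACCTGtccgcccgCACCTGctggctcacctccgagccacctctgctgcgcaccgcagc
AP1M2, chr19:10587263-10587562, minus strand: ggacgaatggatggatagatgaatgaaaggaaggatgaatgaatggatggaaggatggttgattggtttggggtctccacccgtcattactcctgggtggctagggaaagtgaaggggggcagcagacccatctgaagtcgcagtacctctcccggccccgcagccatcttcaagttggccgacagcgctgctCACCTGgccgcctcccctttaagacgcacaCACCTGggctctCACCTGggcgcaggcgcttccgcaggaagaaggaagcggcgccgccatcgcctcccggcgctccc
JUP, chr17:41785927-41786226, minus strand: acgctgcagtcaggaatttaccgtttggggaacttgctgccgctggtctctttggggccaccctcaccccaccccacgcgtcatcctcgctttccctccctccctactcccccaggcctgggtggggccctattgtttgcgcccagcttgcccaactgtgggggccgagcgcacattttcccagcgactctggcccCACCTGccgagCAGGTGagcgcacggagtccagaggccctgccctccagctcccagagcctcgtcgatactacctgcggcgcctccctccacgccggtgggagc
CRB3, CLDN7 and AP1M2 had 3 counts or fewer in both libraries, so that the genes with most matches are among those whose difference could not be read.

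**Figure D5:**
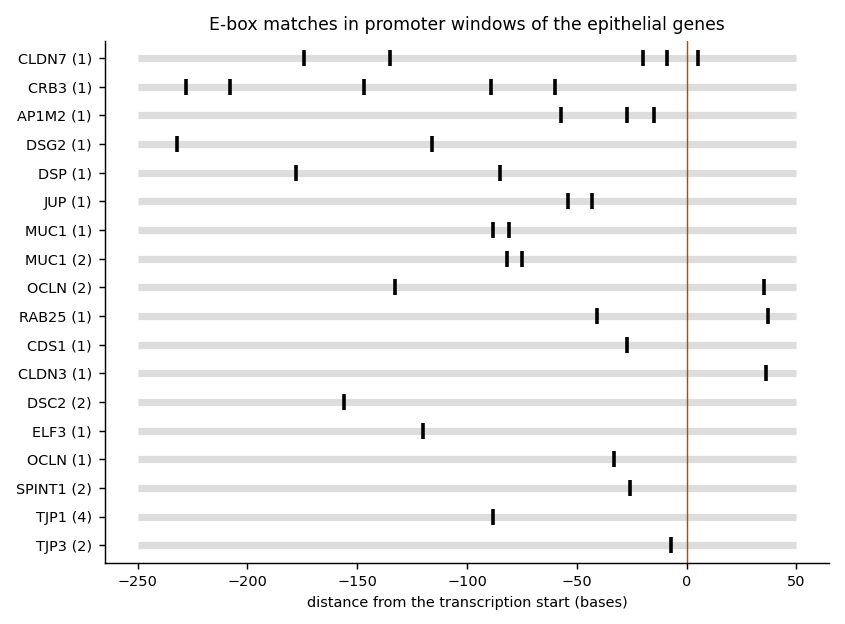
Positions of CAGGTG matches on either strand (black ticks) in the 18 promoter windows of epithelial genes that hold at least 1, in bases from the annotated start (orange line), with the window number of each gene in brackets. CLDN7 and CRB3 have 5 ticks each, and the overlapping MUC1 windows show the same 2 matches.

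Genes with a match were found in both directions, as were genes without one. Over all genes that passed the filter, 22.0% were at least 2-fold higher and 26.7% at least 2-fold lower. Of the 16 genes with a match, 12 passed the filter, 1 at least 2-fold higher, 2 at least 2-fold lower and 9 between. Of the 8 genes without one, 7 passed, 2 higher, 3 lower and 2 between. Of the 18 genes with no entry, 16 passed, 5 higher, 3 lower and 8 between, and they hold 4 of the 7 genes whose interval leaves out equality, so that no match could be read for these. The SMAD box CAGAC was in 15 of the 36 windows, against 45.3% of all windows, and the GRHL site AACCGGTT was in 0, against 0.134%.

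Other genes of the same structures were read in 8 lists, the repressors included. Of 20 further tight junction genes that passed the filter, 10 were at least 2-fold higher in the EMT-labelled library and 1 lower, with a median log2 ratio of 0.91. CLDN23, another claudin, had 26 counts in the EMT-labelled library against 10 in the untreated library (1.71, 0.61 to 2.93). Of 11 further polarity genes 4 were higher and 0 lower. Of 13 adherens junction partners 4 were higher and 3 lower. CTNNB1, which encodes beta-catenin, the partner of E-cadherin and a relative of plakoglobin, had 5 counts against 46 (-2.87, -4.56 to -1.54). CTNNA1, which encodes alpha-catenin, the link to actin, had 14 against 51 (-1.53, -2.50 to -0.65). PVRL3, which encodes nectin 3, had 38 against 17 (1.50, 0.64 to 2.41).

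Of 7 further desmosome genes 3 were higher and 0 lower, with a median log2 ratio of 0.43. Of 7 further epithelial regulators 2 were higher and 0 lower, and CEBPA, a factor of lung epithelial maturation, had 31 counts in the EMT-labelled library against 16 in the untreated library (1.29, 0.38 to 2.26). A list of further surface proteases also held receptors, and of its 7 genes that passed the filter 0 were higher and 3 lower. Of the 3 lower, MET and MST1R are receptors and not proteases. MET, the receptor of hepatocyte growth factor, had 1 count against 20 (-3.99, -9.36 to -1.34), and MST1R, its relative, had 7 against 23 (-1.38, -2.84 to -0.11). The protease gene PRSS27 had 84 against 82 (0.37, -0.09 to 0.83). Of 6 epithelial keratins 1 was higher and 3 lower. KRT8, a keratin of simple epithelia, had 16 against 53 (-1.39, -2.30 to -0.56), and KRT80 had 7 against 36 (-2.03, -3.44 to -0.84). The largest keratin deficit was that of KRT7, with 32 against 179 (-2.15, -2.74 to -1.60). KRT19 was near equal, with 45 against 51 (0.16, -0.46 to 0.76), and KRT17 was the higher keratin, with 6 against 3 (1.34, -0.89 to 3.96). These lists can be read against the same 22.0% higher and 26.7% lower over all genes, and with so few members none is called particular.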

How the data were processed

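AmpliSeq Transcriptome libraries were made from 10 ng of total RNA each, per the labels' protocols. The authors deposited a table of expected counts (estimated, not normalized) per gene, transcript and exon, in which 53.1% and 45.3% of gene values above 0 in the EMT and untreated libraries were whole within 1e-06. Coordinates are hg19. Per the submitters' processing notes the build was hg19 and DESeq was among the tools, with no role given. An aligner or counter is not given in the sources used here.

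Gene values were rounded to the nearest whole number and scaled by TMM in edgeR 4.0.16 under R 4.3.3 (factors 0.946 and 1.06). Ratios have exact 95% Clopper-Pearson intervals, given the sum of both counts (SciPy 1.17.1), and a count of 0 was set to a floor of 3 counts, equal to 5.31 CPM in the EMT-labelled library and 4.21 in the untreated library. Intervals and floors hold counting error alone, since PCR copies carry no molecular identifier. The 2-fold rule, filter, lists and alternatives, with DESeq2 1.42.0 size factors among them, were chosen with earlier results of these data known. Any of the 42 members could be named. From the other lists came genes with at least 20 counts in 1 library, a difference of at least 2-fold and an interval that leaves out equality, and the repressors. PRSS27, KRT17 and KRT19 were named besides, after their values were seen. The ratio computation was tested on simulated data. Strand treatment is not stated, so an overlap with a gene of the other strand cannot be resolved.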

Additional observations from a re-analysis of the deposited data

How the results depend on the processing

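The 8 members called lower ranged from 6 to 10 over every alternative but the scaling on ribosomal protein genes. The 8 called higher became 5 with DESeq2 size factors, 2 at 20 CPM and 5 with genes read in more than 1 exon segment, and lay between 6 and 10 under the other scalings and filters. The filters at 1 CPM and at any count above 0 let the same number of genes through. The median log2 ratio of 0.34 became -0.86 at 20 CPM, where 13 members were left, and 0.00 with DESeq2 size factors. Over all genes these medians were -0.16 and -0.30, against 0.01 in the main setting. At 20 CPM 18.5% of all genes were higher by 2-fold or more and 36.0% lower, and with DESeq2 size factors 17.5% and 33.8%. None of these alternatives turned the direction of a named gene that differed by at least 2-fold. Scaling on ribosomal protein genes, an alternative added after seeing the data, put 39 members higher, 0 lower and the median at 3.80. Over all genes 94.5% were then higher and the median was 3.33. Cell type markers other than VIM were not read singly under the alternatives. The ribosomal scaling turned CLDN1 (2.41), CLDN2 (2.11), CTNNA1 (2.05), CTNNB1 (0.72), GRHL1 (1.85), JUP (0.045), KRT7 (1.44), KRT8 (2.19), KRT80 (1.56), MARVELD3 (2.50), MST1R (2.20), PKP3 (1.48), TJP1 (1.92) and VIM (0.91). SPINT2 and MET kept their direction under it, but their log2 ratios went from -3.82 to -0.23 and from -3.99 to -0.40. The cause of these shifts was not tested. No paired analysis was possible because each group has 1 library. Replicates could not be left out for the same reason. With 27 of 42 members at 10 counts or fewer in both libraries, depth limits most of them to large differences.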
